A study of Homo sapiens with 6 samples.

Results

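The 10 genes described here carry glucose into the cell and through the first, regulated steps of glycolysis. They are the glucose transporters SLC2A1 and SLC2A3, the hexokinases HK1 and HK2, glucose phosphate isomerase (GPI), the phosphofructokinase isoforms PFKL, PFKM and PFKP, and the regulatory enzymes PFKFB3 and PFKFB4. They were chosen by symbol for these roles, with earlier results of these data known. All 10 were found among the 30726 gene symbols of the deposited table. Polysome-associated RNA, the RNA that sediments with several ribosomes in a sucrose gradient, was sequenced from 3 breast cancer lines of human origin, all long established in culture. Each was kept at 1% O2 for 8 hours (hypoxia) or at 21% O2 (normoxia) and treated with cycloheximide, which holds ribosomes on mRNA, before lysis. By their labels, SUM1315 is triple negative, SKBR3 is luminal and HER2+ and T47D is luminal A, and all are WT. SUM1315 grew in DMEM-F12 with serum, insulin and EGF, SKBR3 in McCoy's medium with serum, and T47D in RPMI with serum and insulin, so the line and its medium cannot be told apart. Each line gave 1 library per oxygen level, 6 in all, and the 3 lines are the only replication. Total lysate RNA is not part of these data, so the amount of an mRNA and its loading with ribosomes cannot be told apart.

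Glucose enters most cells through SLC2A (GLUT) proteins, which let it pass down its concentration gradient. Hexokinases then trap it by adding a phosphate, GPI turns the product into fructose phosphate, and phosphofructokinase adds a further phosphate in the step that commits the sugar to glycolysis. PFKFB enzymes make and break down a fructose bisphosphate that is not itself burned but switches phosphofructokinase on. Several of these genes are textbook targets of the hypoxia-inducible factor HIF1, and breast tumours are known for high glucose uptake.

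Values were RPKM, which divide a gene's reads by transcript length and library size, as read from the steps of the deposited values. By those steps, 1 RPKM on a transcript of 1 kb stood for 21.7 to 33.4 reads or read pairs, and 9675 to 10842 genes per library reached 1 RPKM. The markers of SUM1315 and of SKBR3 were high where the labels put them, while those of T47D were partly shared with SKBR3. SUM1315 markers summed to 1774 and 973 RPKM in SUM1315 in hypoxia and normoxia, and to at most 13.5 RPKM elsewhere. T47D markers summed to 793 and 615 RPKM in T47D and to 319 and 540 RPKM in SKBR3. Among them, XBP1 stood at 595 and 437 RPKM in T47D and at 285 and 484 RPKM in SKBR3. ERBB2, the HER2 receptor, stood at 743 and 615 RPKM in SKBR3 in hypoxia and normoxia. ESR1, the estrogen receptor, stood at 4.54 and 5.18 RPKM in T47D and at or below 0.0370 RPKM in the other lines. Of the leukocyte and stromal markers, PTPRC, PECAM1 and DCN were at or below 0.00773 RPKM in every library, while COL1A1 reached 119 and 91.7 RPKM and CD68 reached 44.3 and 45.6 RPKM in hypoxic and normoxic SUM1315. These 5 markers summed to 137 to 163 RPKM in SUM1315, 6.06 to 6.61 RPKM in SKBR3 and 2.59 to 2.88 RPKM in T47D, and their part in the differences between lines was not tested.

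Under hypoxia, 9 of the 10 genes rose on polysomes and none fell, where 6.38% of all tested genes changed in either direction. PFKFB4, SLC2A1 and HK2 had the largest changes, at log2 fold changes of 2.75, 2.46 and 2.25, and ranked 5, 8 and 12 among the 10253 genes tested. PFKP, PFKFB3, HK1 and SLC2A3 followed with 1.75, 1.43, 1.42 and 1.28, and GPI and PFKM with 0.97 and 0.78. PFKL, at 0.30, did not pass, and none of the 10 was lower even at an unadjusted p under 0.05. The comparison used limma on log2(RPKM + 1) with the line as a block and Benjamini-Hochberg adjustment over all 10253 genes, and an adjusted p under 0.05 was called. Of those, 4.12% were called higher and 2.26% lower. Because the 10 genes were chosen with earlier results of these data known, setting them beside these shares is a description only. All 10 genes passed the filter of 1 RPKM in at least 3 libraries. Their median log2 fold change was 1.43, against -0.01 over all tested genes, and by line it was 1.25 in SUM1315, 1.96 in SKBR3 and 1.42 in T47D. In bulk libraries fewer cells with an mRNA and less of it per cell cannot be told apart. An RPKM value is a share of the RNA sequenced and does not show a change in the total RNA on polysomes.

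**Figure D1:**
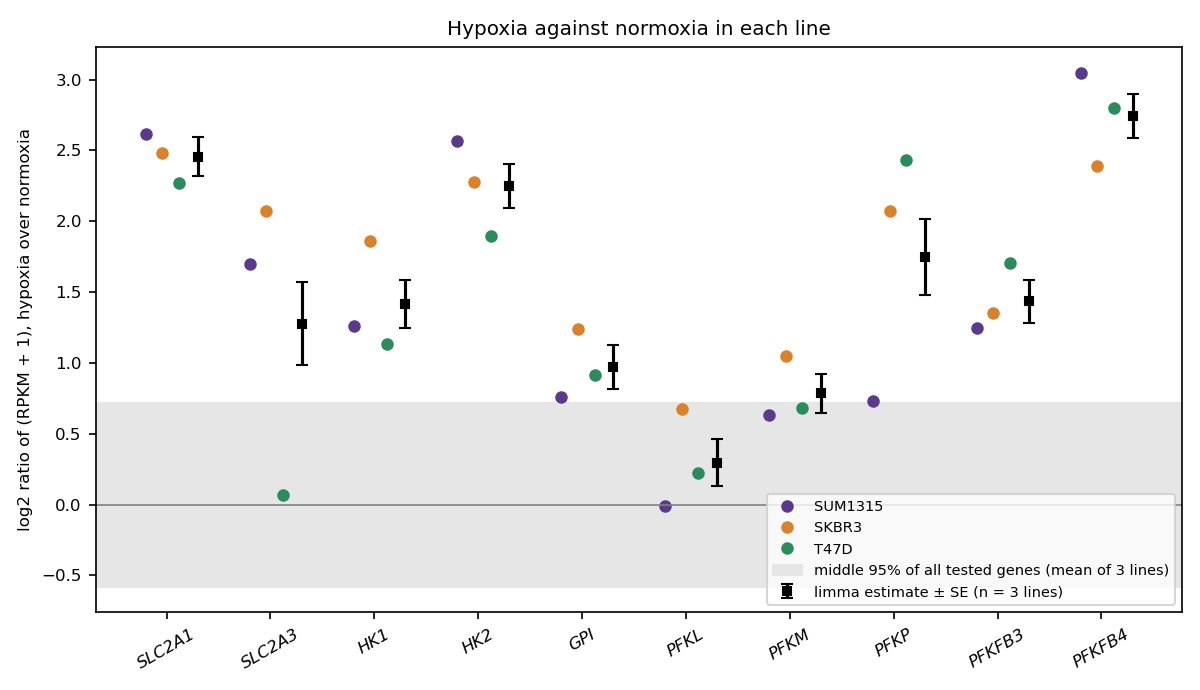
The vertical axis gives the log2 ratio of (RPKM + 1), hypoxia over normoxia, for each gene along the horizontal axis. Coloured points are the lines (1 library against 1 library), and black squares are the limma estimates with SE over 3 lines. The grey band from -0.58 to 0.72 holds the middle 95% of all tested genes as the mean of 3 lines, not as single lines. The squares of PFKFB4, SLC2A1 and HK2 sit highest, and the square of PFKL lies inside the band. Points of single lines inside it are those of PFKL, the SUM1315 and T47D points of PFKM and the T47D point of SLC2A3.

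Because these genes moved together and several are known HIF1 targets, the RefSeq promoter windows (build GRCh38.p14, 250 bases before to 50 after each start) were searched for the HIF core letters ACGTG and GCGTG on both strands. Of the 10 genes, 9 had an entry, with 26 windows in all, and SLC2A3 had none. Of the 26 windows, 14 had a match. Windows of a gene can overlap and hold the same match, as the 2 PFKM windows with a match do. Among all 35116 human windows, 21.4% held ACGTG, 36.5% held GCGTG and 48.4% held either. Such letters are thus common, and 14 of 26 windows is near that share. A match is a description of the letters and not a bound site. Shown are the 250 bases before the start of 4 windows, of called genes and of the gene that did not pass. They were chosen after the matches were seen, and SLC2A1 and PFKP, which changed more than PFKFB3, are not shown. They are written 5′ to 3′ on the gene's strand in lower case with the matches in capitals. They are the second HK2 window (chr2:74834920-74835169, plus strand), the second PFKFB3 window (chr10:6202682-6202931, plus strand), the PFKFB4 window (chr3:48556804-48557053, minus strand) and the PFKL window (chr21:44299803-44300052, plus strand).
HK2: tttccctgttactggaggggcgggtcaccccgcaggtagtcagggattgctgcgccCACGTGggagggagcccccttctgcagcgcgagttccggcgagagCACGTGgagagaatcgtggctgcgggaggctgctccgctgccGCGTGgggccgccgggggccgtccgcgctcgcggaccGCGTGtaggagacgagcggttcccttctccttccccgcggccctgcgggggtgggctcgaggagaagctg
PFKFB3: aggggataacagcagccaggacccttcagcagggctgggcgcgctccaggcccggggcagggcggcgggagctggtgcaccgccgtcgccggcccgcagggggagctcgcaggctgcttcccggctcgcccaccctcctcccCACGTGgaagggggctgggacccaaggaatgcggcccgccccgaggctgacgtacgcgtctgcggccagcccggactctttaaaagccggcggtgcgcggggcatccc
PFKFB4: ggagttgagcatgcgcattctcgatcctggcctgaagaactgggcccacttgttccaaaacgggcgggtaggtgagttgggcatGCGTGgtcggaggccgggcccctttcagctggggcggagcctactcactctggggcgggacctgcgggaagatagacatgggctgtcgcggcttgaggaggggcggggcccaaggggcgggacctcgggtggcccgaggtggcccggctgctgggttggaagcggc
PFKL: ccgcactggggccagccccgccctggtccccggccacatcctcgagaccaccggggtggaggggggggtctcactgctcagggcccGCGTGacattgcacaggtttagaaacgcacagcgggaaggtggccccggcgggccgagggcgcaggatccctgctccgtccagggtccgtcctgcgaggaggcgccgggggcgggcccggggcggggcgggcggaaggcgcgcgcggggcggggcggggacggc
In HK2 the palindrome CACGTG, which holds ACGTG on both strands, lay at -194 to -189 and again at -149 to -144 from the start. GCGTG followed it at -107 to -103 and at -70 to -66. The PFKFB3 window held 1 such palindrome at -108 to -103. PFKFB4, with the largest change of the 10 genes, and PFKL, with the smallest, each held 1 GCGTG, at -166 to -162 and at -164 to -160. Whether such letters go with the size of a change was not tested. The only match in the SLC2A1 window was GCGTG at 26 to 30 after the start.

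SLC2A1 (GLUT1; chromosome 1, 42925353 to 42958868, minus strand, RefSeq position on GRCh38) encodes the glucose transporter found in most cell types. It stood at 10.5 RPKM in SUM1315 hypoxia against 0.878 in normoxia, at 75.9 against 12.7 in SKBR3 and at 7.38 against 0.740 in T47D. Each hypoxic library was above the normoxic library of its own line, by RPKM ratios of 12.0, 5.96 and 9.97. The groups overlapped across lines, since normoxic SKBR3 stood above hypoxic SUM1315 and hypoxic T47D. The limma log2 fold change was 2.46 ± 0.14 (SE, n = 3 lines, adjusted p = 1.89e-05). On that scale the 3 lines gave 2.62, 2.48 and 2.27 in SUM1315, SKBR3 and T47D. The pseudocount brings these values closer together than the RPKM ratios, since normoxic SUM1315 and T47D stood below 1 RPKM. In RPKM the lines also differed more in level than in ratio.

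SLC2A3 (GLUT3; chromosome 12, 7919230 to 7936187, minus strand) encodes a transporter with high affinity for glucose, best known from neurons. It stood at 5.93 RPKM in SUM1315 hypoxia against 1.13 in normoxia, at 4.91 against 0.409 in SKBR3 and at 0.0815 against 0.0341 in T47D. In SUM1315 and SKBR3 the RPKM ratios were 5.24 and 12.0. In T47D both values rested on an estimated 7.09 and 3.22 reads, close to the floor of 3 reads, and no RPKM ratio is given. SLC2A3 passed the filter through both SUM1315 libraries and hypoxic SKBR3. Its log2 fold change of 1.28 ± 0.30 (SE, n = 3 lines) passed limma's test at an adjusted p of 0.0343. Without the SKBR3 libraries it was 0.88 and no longer passed (limma adjusted p = 0.113). It also did not pass with a pseudocount of 5, with a filter on the mean, or after either rescaling of the libraries (adjusted p from 0.0603 to 0.0714). On log2(RPKM + 1) the lines gave 1.70, 2.07 and 0.06, where the pseudocount holds the T47D value near 0. Its near-identical copies SLC2A14 and SLC2A3P4 were at or below 0.106 RPKM in every library, and reads shared among them cannot be told apart.

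Counted together, SLC2A1 and SLC2A3 summed to 16.4 RPKM in SUM1315 hypoxia against 2.01 in normoxia, to 80.8 against 13.1 in SKBR3 and to 7.46 against 0.774 in T47D. The make-up of the sum differed by line. SLC2A3 made up 36.0% of it in SUM1315 hypoxia and 56.3% in SUM1315 normoxia, so that SUM1315 at 21% O2 was the only library where SLC2A3 outweighed SLC2A1. Its share was 6.08% against 3.11% in SKBR3 and 1.09% against 4.41% in T47D. The share differed between hypoxia and normoxia by -6.87 ± 12.0 points (SD, n = 3 lines) and was higher in 1 of 3 lines (exact sign-flip permutation test, two-sided, p = 0.5, where 3 pairs allow no p below 0.25). Without SUM1315 the mean difference was -0.175 points.

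**Figure D2:**
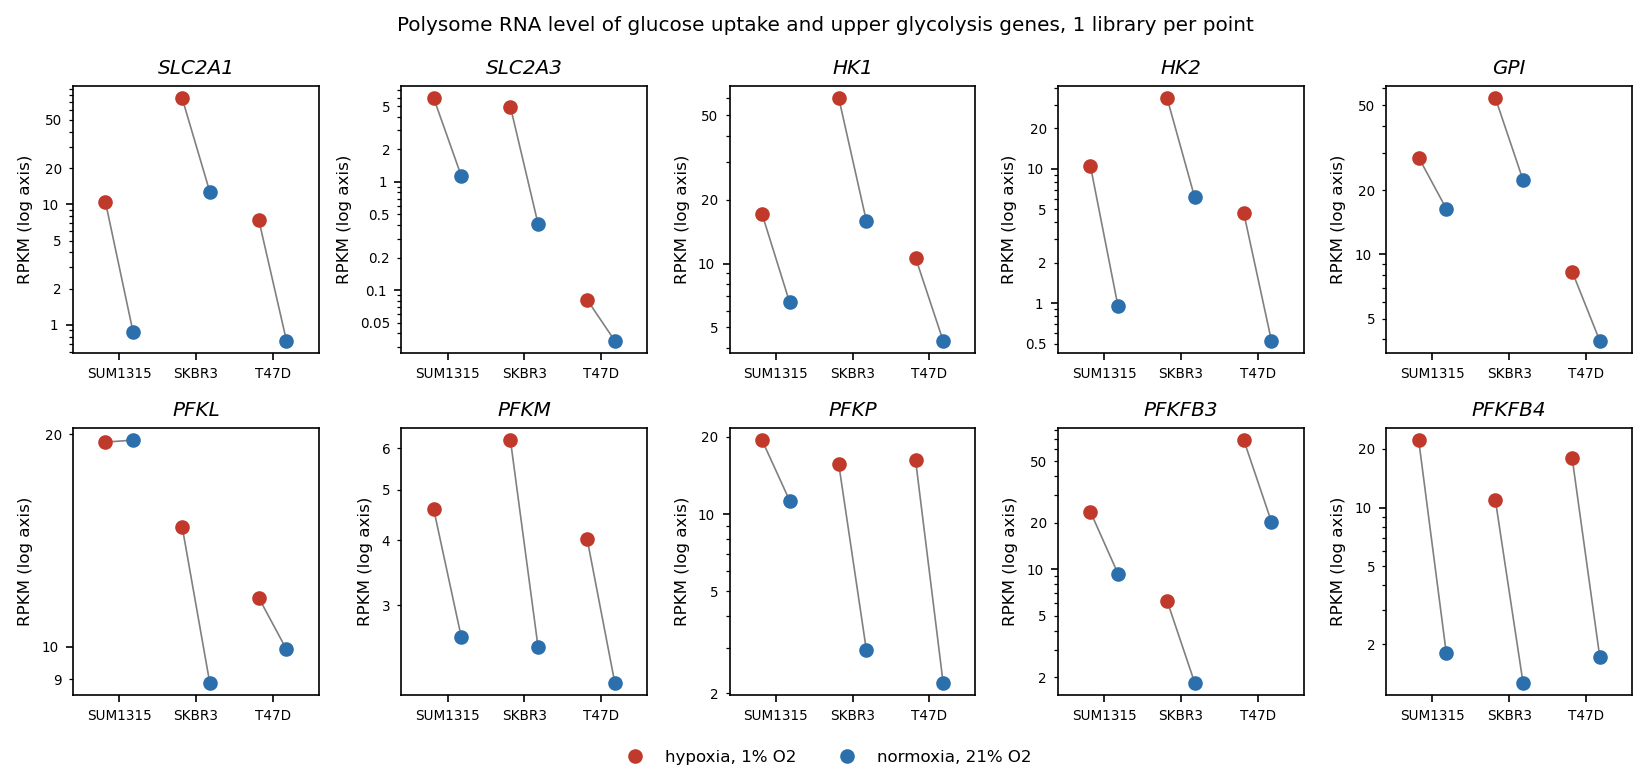
Each panel shows 1 gene, with RPKM on a log axis and the 3 lines along the horizontal axis. Red points are hypoxia, blue points normoxia, and a grey line joins the 2 libraries of a line. Every red point lies above its blue partner except for PFKL in SUM1315, where 19.5 and 19.6 RPKM are level.

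Both hexokinases rose, and HK2 rose by more. HK1 (chromosome 10, 69270000 to 69401882, plus strand), the hexokinase present in most tissues, stood at 17.1 RPKM in SUM1315 hypoxia against 6.56 in normoxia, at 60.2 against 15.9 in SKBR3 and at 10.7 against 4.33 in T47D. Each line's hypoxic library was higher, by RPKM ratios of 2.61, 3.79 and 2.47, while normoxic SKBR3 lay above hypoxic T47D. The log2 fold change was 1.42 ± 0.17 (SE, n = 3 lines, limma adjusted p = 0.00220).

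HK2 (chromosome 2, 74834127 to 74893359, plus strand) is the hexokinase of muscle and fat that many tumours express. It stood at 10.6 RPKM in SUM1315 hypoxia against 0.950 in normoxia, at 33.5 against 6.12 in SKBR3 and at 4.67 against 0.525 in T47D. The RPKM ratios were 11.1, 5.48 and 8.89, with normoxic SKBR3 again above hypoxic T47D. The log2 fold change was 2.25 ± 0.15 (SE, n = 3 lines, limma adjusted p = 9.50e-05). The opposite-strand gene AC019069.1 overlaps HK2 and stood at 4.06 against 4.87 RPKM in SUM1315, 1.36 against 2.51 in SKBR3 and 1.55 against 0.995 in T47D. Whether the counting used strand is not stated, so reads from the 2 genes cannot be told apart. In SUM1315 and SKBR3 it was lower in the hypoxic library, and in T47D it was higher.

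HK2 made up 38.1% of the summed HK1 and HK2 RPKM in SUM1315 hypoxia against 12.6% in normoxia, 35.8% against 27.8% in SKBR3 and 30.4% against 10.8% in T47D. The 3 hypoxic shares all lay above the 3 normoxic shares. The mean difference was 17.7 ± 8.92 points (SD, higher in 3 of 3 lines), with an exact sign-flip permutation p of 0.25, the smallest that 3 pairs allow. HK1 remained the more abundant hexokinase in every library. The sum itself was 27.7 RPKM in hypoxia against 7.51 in normoxia in SUM1315, 93.7 against 22.0 in SKBR3 and 15.3 against 4.85 in T47D.

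GPI (chromosome 19, 34359718 to 34402413, plus strand) interconverts glucose phosphate and fructose phosphate and has no second isoform gene among the 10. It stood at 28.4 RPKM in SUM1315 hypoxia against 16.4 in normoxia, at 54.0 against 22.3 in SKBR3 and at 8.32 against 3.94 in T47D. The RPKM ratios of 1.74, 2.42 and 2.11 were smaller than those of SLC2A1 in the same lines. The groups overlapped across lines, as both other normoxic libraries stood above hypoxic T47D. Its log2 fold change was 0.97 ± 0.15 (SE, n = 3 lines, limma adjusted p = 0.00924). GPI was the most abundant of the 10 genes in hypoxic SUM1315 and in normoxic SKBR3.

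The 3 phosphofructokinase genes, whose products assemble into mixed tetramers, differed in their response. PFKP (chromosome 10, 3067548 to 3136805, plus strand), the platelet type, stood at 19.4 RPKM in SUM1315 hypoxia against 11.3 in normoxia, at 15.6 against 2.95 in SKBR3 and at 16.3 against 2.20 in T47D. The 3 hypoxic libraries lay close together and above all 3 normoxic ones, averaging 17.1 ± 2.02 RPKM in hypoxia and 5.47 ± 5.04 RPKM in normoxia (SD, n = 3 each). Normoxic SUM1315 stood apart from the other 2 normoxic libraries, and the RPKM ratios were accordingly 1.72, 5.31 and 7.41. The log2 fold change was 1.75 ± 0.27 (SE, n = 3 lines, limma adjusted p = 0.00816), from 0.73, 2.08 and 2.44 in SUM1315, SKBR3 and T47D. That span of 1.70 was the 46th widest of the 10253 genes, against a median of 0.41. Whether the response differed between lines was not tested, with 1 library per line and oxygen level. Without the SUM1315 libraries the log2 fold change was 2.26 and without T47D it was 1.40, both past the threshold.

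PFKM (chromosome 12, 48105353 to 48146404, plus strand), the muscle type, stood at 4.58 RPKM in SUM1315 hypoxia against 2.61 in normoxia, at 6.22 against 2.50 in SKBR3 and at 4.02 against 2.13 in T47D. All 3 hypoxic values lay above all 3 normoxic values, averaging 4.94 ± 1.14 RPKM in hypoxia and 2.41 ± 0.248 RPKM in normoxia (SD, n = 3 each). The RPKM ratios were 1.76, 2.49 and 1.88 and the log2 fold change was 0.78 ± 0.14 (SE, n = 3 lines, limma adjusted p = 0.0131). SENP1, which overlaps PFKM on the opposite strand, stood between 2.33 and 6.63 RPKM, so part of the PFKM signal cannot be told apart from it without strand. In each line SENP1 was lower in hypoxia, for example 2.33 against 3.31 RPKM in SKBR3.

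PFKL (chromosome 21, 44300053 to 44327373, plus strand), the liver type, was the only one of the 10 genes that did not pass. It stood at 19.5 RPKM in SUM1315 hypoxia against 19.6 in normoxia, at 14.8 against 8.90 in SKBR3 and at 11.7 against 9.92 in T47D. Hypoxic and normoxic values overlapped. SUM1315 was level at an RPKM ratio of 0.994, and SKBR3 and T47D had 1.67 and 1.18. The log2 difference was 0.30 ± 0.17 (SE, n = 3 lines, limma adjusted p = 0.281). The difference between lines was not tested.

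The shares of PFKP and PFKL in the summed phosphofructokinase RPKM differed between the oxygen levels in the same direction in each line. PFKP made up 44.6% of the summed RPKM of the 3 genes in SUM1315 hypoxia against 33.6% in normoxia, 42.6% against 20.5% in SKBR3 and 50.9% against 15.4% in T47D. Its mean difference was 22.8 ± 12.2 points (SD, higher in 3 of 3 lines, exact sign-flip permutation p = 0.25, the smallest possible). PFKL made up 44.8% against 58.6% in SUM1315, 40.4% against 62.0% in SKBR3 and 36.6% against 69.6% in T47D. It was lower in all 3 lines, by a mean difference of -22.8 ± 9.68 points (SD, exact sign-flip permutation p = 0.25). Shares of the same sum depend on each other, so this is not a result separate from that of PFKP. The PFKL level itself had RPKM ratios of 0.994, 1.67 and 1.18 in SUM1315, SKBR3 and T47D. PFKL was the most abundant isoform in every normoxic library, whereas PFKP was the most abundant in hypoxic SKBR3 and T47D and nearly level with PFKL in hypoxic SUM1315. PFKM held 10.5% against 7.78% in SUM1315, 17.0% against 17.4% in SKBR3 and 12.5% against 15.0% in T47D, with no common direction (mean difference -0.0437 ± 2.62 points, SD, n = 3 lines, exact permutation p = 1). The summed RPKM was 43.5 in hypoxia against 33.5 in normoxia in SUM1315, 36.7 against 14.3 in SKBR3 and 32.1 against 14.3 in T47D, so the 3 lines were closer together in hypoxia.

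PFKFB3 and PFKFB4 are bifunctional enzymes that make and remove the fructose bisphosphate that activates phosphofructokinase, and PFKFB3 is known for a kinase activity far above its phosphatase activity. PFKFB3 (chromosome 10, 6144921 to 6326637, plus strand) stood at 23.6 RPKM in SUM1315 hypoxia against 9.35 in normoxia, at 6.23 against 1.84 in SKBR3 and at 68.4 against 20.2 in T47D. Its RPKM ratios of 2.52, 3.39 and 3.38 were alike, while normoxic T47D stood above hypoxic SKBR3, so that the groups overlapped across lines. The log2 fold change was 1.43 ± 0.15 (SE, n = 3 lines, limma adjusted p = 0.00104). PFKFB3 was the most abundant of the 10 genes in both T47D libraries.

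PFKFB4 (chromosome 3, 48517684 to 48563136, minus strand) stood at 22.1 RPKM in SUM1315 hypoxia against 1.80 in normoxia, at 10.9 against 1.27 in SKBR3 and at 17.9 against 1.72 in T47D. The hypoxic values were all above the normoxic ones with a wide gap, averaging 17.0 ± 5.68 RPKM in hypoxia and 1.59 ± 0.285 RPKM in normoxia (SD, n = 3 each). The RPKM ratios were 12.3, 8.59 and 10.4, and the log2 fold change of 2.75 ± 0.16 (SE, n = 3 lines, limma adjusted p = 1.89e-05) was the 5th largest rise among all tested genes. In normoxia PFKFB4 was about equally low in the 3 lines, unlike SLC2A1 and HK2, which were higher in normoxic SKBR3.

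The log2 ratio of PFKFB3 over PFKFB4 was 0.09 in hypoxia against 1.89 in normoxia in SUM1315, -0.72 against 0.32 in SKBR3 and 1.87 against 2.97 in T47D. It was lower in hypoxia in all 3 lines, by a mean difference of -1.31 ± 0.43 (SD, exact sign-flip permutation p = 0.25, the smallest possible). PFKFB4 outweighed PFKFB3 only in hypoxic SKBR3, and T47D kept the highest ratio at both oxygen levels. The sum of both was 45.7 RPKM in hypoxia against 11.1 in normoxia in SUM1315, 17.1 against 3.11 in SKBR3 and 86.3 against 22.0 in T47D.

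**Figure D3:**
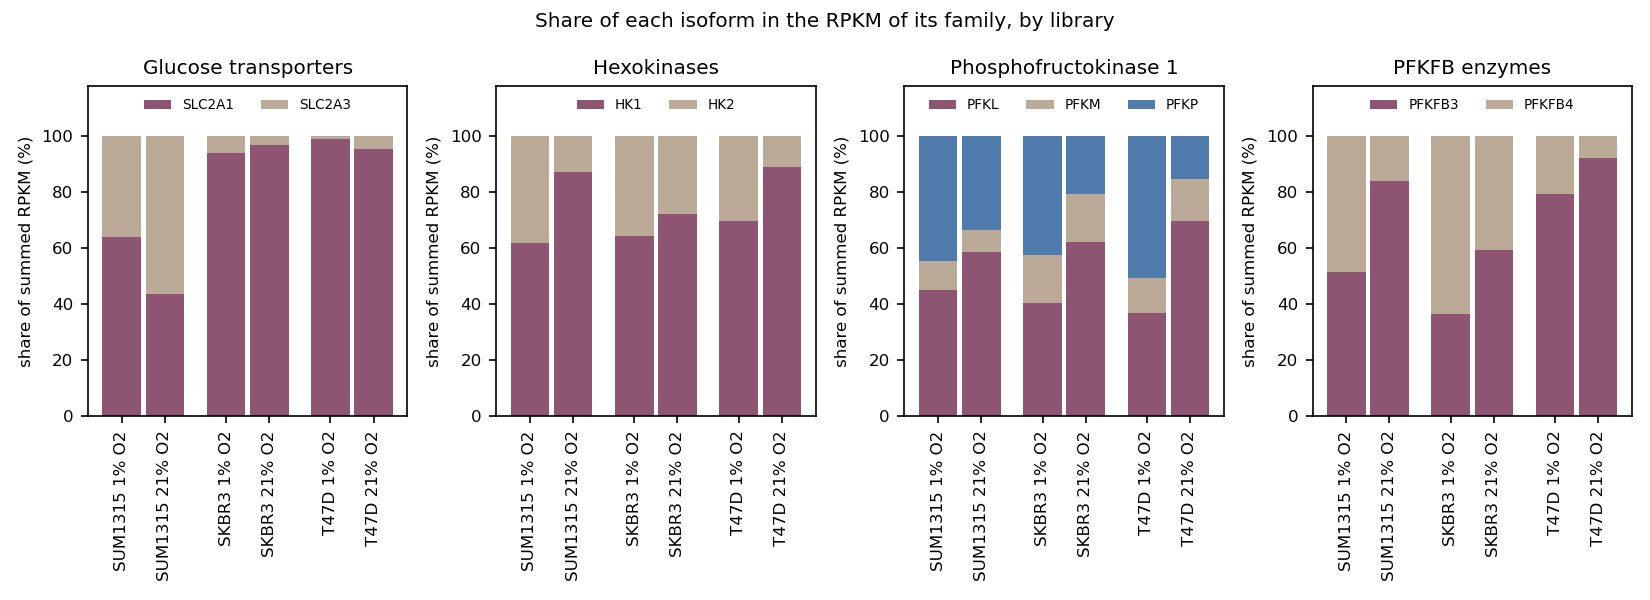
Stacked bars give the share of each isoform (%, vertical axis) in the summed RPKM of its family, 1 bar per library, with hypoxia left of normoxia for each line. HK2, PFKP and PFKFB4 take larger shares in hypoxia in every line, and SLC2A3 is above 30% in SUM1315 only, at 36.0% and 56.3%.

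The lines also differed in the levels of these genes, and SKBR3 and T47D differed in opposite directions for SLC2A1 and PFKFB3. Lines were compared over both oxygen levels in the same limma fit, on log2(RPKM + 1). Between SUM1315 and SKBR3, 4 of the 10 genes were higher and 4 lower, beside 41.8% and 28.0% of all tested genes (69.8% in either direction). Between SUM1315 and T47D, 6 were higher and 1 lower, beside 39.0% and 30.2% of all genes (69.2% in either direction). Between SKBR3 and T47D, 5 were higher and 1 lower, beside 26.6% and 31.2% (57.9% in either direction). These shares of called genes are near the background for these lines, so the counts say little about the 10 genes and their values carry the description. The median difference of all genes was 0.21 for SUM1315 against SKBR3, 0.16 for SUM1315 against T47D and -0.05 for SKBR3 against T47D, and median-of-ratios rescaling moved each to between -0.00 and 0.01. That rescaling changed the split of all genes in SUM1315 against SKBR3 to 3443 higher and 3544 lower, compared with 4288 and 2870 as deposited, and the split of the 10 genes to 1 higher and 4 lower.

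**Figure D4:**
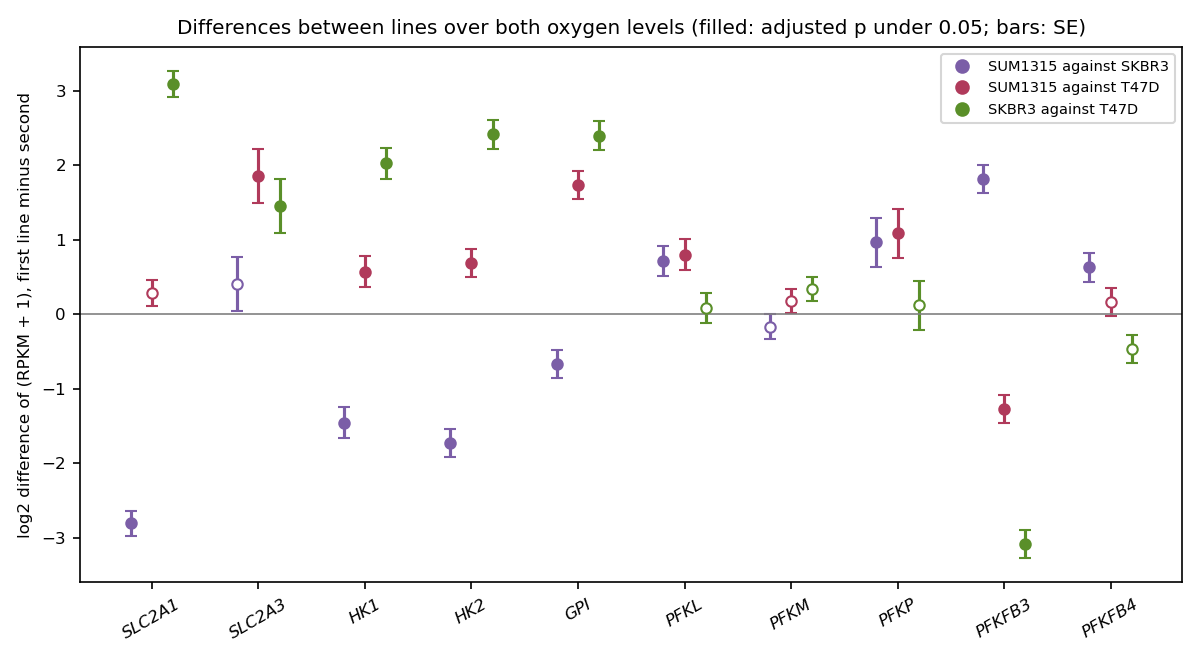
The vertical axis gives the log2 difference of (RPKM + 1) between lines, first-named minus second-named, over both oxygen levels, with SE bars from limma, for each gene along the horizontal axis. Filled circles passed an adjusted p of 0.05. SLC2A1, HK1, HK2 and GPI have green circles (SKBR3 against T47D) far above 0, at 3.09, 2.03, 2.41 and 2.40, and PFKFB3 has its green circle far below 0, at -3.08.

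SKBR3 had the highest SLC2A1. The difference was -2.81 ± 0.17 for SUM1315 against SKBR3 (limma adjusted p = 3.05e-07) and 3.09 ± 0.17 for SKBR3 against T47D (limma adjusted p = 4.92e-07). The difference between SUM1315 and T47D, 0.28 ± 0.17 (limma adjusted p = 0.161), did not pass. HK2 followed the order SKBR3, SUM1315, T47D, with -1.72 ± 0.19 between SUM1315 and SKBR3 and 2.41 ± 0.19 between SKBR3 and T47D (limma adjusted p = 2.14e-05 and 4.34e-06). HK1 had -1.46 ± 0.21 and 2.03 ± 0.21 in the same pairs (limma adjusted p = 0.000138 and 2.71e-05). These calls of SLC2A1, HK1 and HK2 held when any 1 library was left out. The smaller differences between SUM1315 and T47D, 0.57 ± 0.21 for HK1 and 0.69 ± 0.19 for HK2 (limma adjusted p = 0.0320 and 0.00796), did not. HK1 lost its call without hypoxic SUM1315, normoxic SUM1315 or hypoxic T47D (adjusted p = 0.0518, 0.213 and 0.261) and after either rescaling of the libraries (0.140 and 0.0821), and HK2 without hypoxic SUM1315 or hypoxic T47D (0.129 and 0.156). A pseudocount of 5 also ended both calls (0.40 for each, adjusted p = 0.111 for HK1 and 0.106 for HK2).

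PFKFB3 ran in the opposite order, T47D, SUM1315, SKBR3. Its differences were 1.81 ± 0.19 for SUM1315 against SKBR3, -1.27 ± 0.19 for SUM1315 against T47D and -3.08 ± 0.19 for SKBR3 against T47D (limma adjusted p = 1.28e-05, 0.000163 and 8.26e-07). All 3 calls held when any 1 library was left out. SKBR3, highest in SLC2A1, HK1 and HK2, was thus lowest in PFKFB3.

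GPI was low in T47D, by 1.74 ± 0.19 for SUM1315 against T47D and 2.40 ± 0.19 for SKBR3 against T47D (limma adjusted p = 2.05e-05 and 4.34e-06), which held without any 1 library. Its difference between SUM1315 and SKBR3, -0.66 ± 0.19 (limma adjusted p = 0.00956), was lost without the hypoxic library of SUM1315 or of SKBR3 (adjusted p = 0.159 and 0.0791). SLC2A3 was higher than in T47D by 1.86 ± 0.36 in SUM1315 and by 1.45 ± 0.36 in SKBR3, both among the calls counted above. It passed the filter only through SUM1315 and hypoxic SKBR3, and T47D stood near the floor of 3 reads. The filter thus favoured this direction, and no p is given. The SUM1315 difference was 0.95 without hypoxic T47D. The SKBR3 difference was 0.86 without hypoxic SKBR3 and 0.54 without hypoxic T47D. SUM1315 and SKBR3 did not pass for SLC2A3 (0.41 ± 0.36, limma adjusted p = 0.329), and passed when hypoxic T47D, normoxic T47D or normoxic SUM1315 was left out (0.41, 0.41 and 0.73, adjusted p = 0.0448, 0.0423 and 0.0127).

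PFKP and PFKL were higher in SUM1315 than in the luminal lines, but these calls rested on single libraries. PFKP differed by 0.97 ± 0.33 from SKBR3 and 1.09 ± 0.33 from T47D (limma adjusted p = 0.0226 and 0.0129). Without normoxic SUM1315 these were 0.21 and 0.33 and did not pass (adjusted p = 0.554 and 0.331). Without the normoxic library of the other line they were 0.72 and 0.57, and did not pass either (0.164 and 0.166). PFKL differed by 0.72 ± 0.20 from SKBR3 and 0.80 ± 0.20 from T47D (limma adjusted p = 0.00914 and 0.00500). Without normoxic SUM1315 neither passed (0.49 and 0.57), and the SKBR3 difference was lost without normoxic SKBR3 as well (0.43, adjusted p = 0.104). The differences between SKBR3 and T47D in PFKP (0.12 ± 0.33) and PFKL (0.09 ± 0.20) did not pass.

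PFKM passed in none of the 3 pairs of lines. Its differences were -0.16 ± 0.17 for SUM1315 against SKBR3, 0.18 ± 0.17 for SUM1315 against T47D (-0.023 after quantile normalization) and 0.34 ± 0.17 for SKBR3 against T47D (limma adjusted p = 0.400, 0.357 and 0.103). The last passed only without normoxic SKBR3 (0.54, adjusted p = 0.0396). PFKFB4 was higher in SUM1315 than in SKBR3 by 0.63 ± 0.19 (limma adjusted p = 0.0128), a call lost without the hypoxic library of either line (0.40 and 0.36, adjusted p = 0.173 and 0.139). Its other differences, 0.17 ± 0.19 for SUM1315 against T47D and -0.47 ± 0.19 for SKBR3 against T47D, did not pass (limma adjusted p = 0.455 and 0.0577). The second passed with a pseudocount of 0.1 (-0.56, adjusted p = 0.0369), without hypoxic SUM1315 (-0.47, adjusted p = 0.0360) and without normoxic SKBR3 (-0.73, adjusted p = 0.0154). After median-of-ratios rescaling, the calls of PFKL, PFKP and PFKFB4 for SUM1315 against SKBR3 were lost as well (0.46, 0.72 and 0.41, limma adjusted p = 0.0812, 0.106 and 0.0632).

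Around these 10 genes, lower glycolysis genes also rose under hypoxia, while no other listed transporter, hexokinase or fructose phosphate regulator passed. Of 15 lower glycolysis genes, 11 were tested and 7 rose, with a median log2 fold change of 1.19. PGK1, a kinase that makes ATP, rose by 1.59 ± 0.16 (SE, limma adjusted p = 0.000775) and ALDOC, an aldolase, by 1.46. LDHA, which makes lactate, PKM, the pyruvate kinase, and ENO1, an enolase, rose by 1.25, 1.23 and 1.19. ALDOA and GAPDH rose by 0.76 and 0.75. The ALDOA call was lost without SUM1315 or without SKBR3 (limma adjusted p = 0.0753 and 0.0552), and the GAPDH call without SKBR3 (0.0663). ENO2 (1.31 ± 0.36, limma adjusted p = 0.0576), TPI1 (0.46), LDHB (0.32) and PGAM1 (0.28) did not pass.

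Other glucose transporter genes did not pass. Of 13, 5 were tested, and the largest and smallest values were 0.30 for SLC2A11 and -0.46 for SLC2A6, a lysosomal transporter (limma adjusted p = 0.142 and 0.0778), with 2 of the 5 at an unadjusted p under 0.05. SLC2A12 had 0.24 and SLC2A8 -0.24. Of 5 other hexokinase genes and regulators, ADPGK, which phosphorylates glucose with ADP, was the only one tested, at -0.46 (limma adjusted p = 0.0809). HK3 and GCKR were listed at 0 in all 6 libraries. Of 5 further genes acting on the fructose phosphate step, PFKFB2, TIGAR and FBP1 were tested at 0.12, -0.36 and -0.06, and none passed (1 at an unadjusted p under 0.05).

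FBP1, the gluconeogenic enzyme that reverses the phosphofructokinase step, separated the lines. It was listed at 0 and at 0.0263 RPKM in SUM1315 hypoxia and normoxia, against 12.4 and 9.78 RPKM in SKBR3 and 7.22 and 10.2 RPKM in T47D. On log2(RPKM + 1) its difference was -3.57 ± 0.19 for SUM1315 against SKBR3 and -3.24 ± 0.19 for SUM1315 against T47D. FBP1 passed the filter only through the SKBR3 and T47D libraries, so the filter set this direction and no p is given. TXNIP, which lowers glucose uptake by removing transporters from the cell surface, had the same split. It stood at 0.0252 and 0.0128 RPKM in SUM1315 hypoxia and normoxia, at 21.8 and 16.1 in SKBR3 and at 13.6 and 3.12 in T47D. Its differences were -4.27 ± 0.34 for SUM1315 against SKBR3 and -2.93 ± 0.34 for SUM1315 against T47D. TXNIP also passed the filter only through SKBR3 and T47D, so no p is given for these either. Under hypoxia TXNIP had 0.75 ± 0.28 and did not pass (limma adjusted p = 0.122), but without SUM1315 it had 1.12 and passed (0.00103). Among the other 5 regulators of transporter abundance at the cell surface none passed, and 2 of the 6 were at an unadjusted p under 0.05. VPS35 and VPS26A, parts of the retromer that returns transporters to the surface, had 0.18 and -0.54, and VPS26A passed only without SUM1315 (limma adjusted p = 0.0405). VPS29 had log2 ratios of (RPKM + 1) of -0.16, -0.41 and -0.15 in SUM1315, SKBR3 and T47D.

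In the pentose phosphate branch, which leaves glycolysis after hexokinase, 2 of 7 tested genes rose. TKT, a transketolase, rose by 0.89 ± 0.14 and PGD, which makes NADPH, by 0.72 ± 0.14 (SE, limma adjusted p = 0.0102 and 0.0220). PGD lost its call without SUM1315 or without T47D (adjusted p = 0.0703 and 0.0576). TALDO1 (-0.29) and PGLS (-0.40) did not pass. In the hexosamine and mannose branch, which leaves from fructose phosphate, 2 of 8 tested genes rose and 1 fell. MPI, which makes mannose phosphate, rose by 0.60 ± 0.13, OGA, which removes GlcNAc from proteins, rose by 0.59 ± 0.13, and PMM2, the next step of the mannose branch, had -0.67 ± 0.14 (SE, limma adjusted p = 0.0264, 0.0334 and 0.0232). MPI and PMM2 lost their calls without T47D (adjusted p = 0.118 and 0.0908), and OGA without each line in turn (from 0.0535 to 0.112). GNPNAT1 did not pass, with log2 ratios of (RPKM + 1) of -0.09, -0.67 and -0.39 in SUM1315, SKBR3 and T47D.

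**Figure D5:**
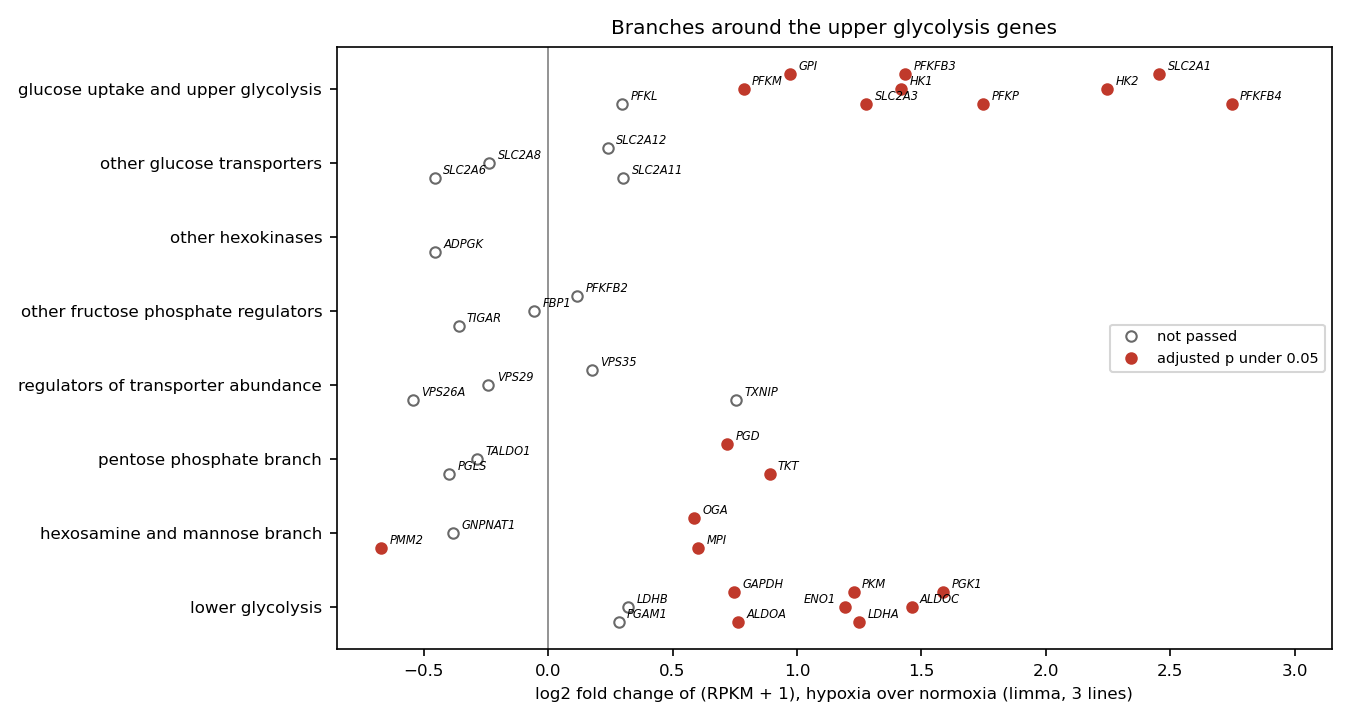
Each row is a gene list. Circles are the 10 genes and, of each other list, the called genes and the 2 largest and 2 smallest values, placed by its limma log2 fold change of (RPKM + 1), hypoxia over normoxia, on the horizontal axis. Filled circles passed an adjusted p of 0.05. The rows of glucose uptake and upper glycolysis (median 1.43) and lower glycolysis (median 1.19) lie right of 0, and the rows between them lie around 0.

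Over the 6 libraries the 10 genes did not share a single profile. On log2(RPKM + 1), SLC2A1 had a Pearson correlation of 0.982 with HK2 and 0.980 with HK1, and HK1 had 0.979 with HK2. PFKFB3 and GPI had -0.518. These correlations describe 6 libraries that share lines and oxygen levels. The similar genes named next were picked for the highest values among all tested genes, a choice that favours high correlations. Whether they are regulated together was not tested. Among all tested genes, the most similar to SLC2A1 were XRN2 (0.995) and the aldolase ALDOA (0.990), and the most similar to HK2 were NUDT13 (0.997) and RBPJ (0.994). For HK1 they were SEC24B (0.994) and MAFF (0.989), and for GPI they were ITPR3 and NAMPT (both 0.995). PFKL was most similar to H6PD (0.997) and XRCC5 (0.984), PFKM to GLG1 (0.983) and UBA1 (0.981), and PFKP to PLEKHA4 (0.973) and ANGPTL4 (0.968). PFKFB3 was most similar to ZNF616 and IFT122 (both 0.995), PFKFB4 to ZNF638 (0.991) and TP53I13 (0.984), and SLC2A3 to KIAA2013 (0.992) and GOLPH3L (0.989).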

How the data were processed

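The authors deposited 1 table of values per gene symbol and library, whose header names no unit. The values were taken to be RPKM computed by the authors: value times transcript length fell on whole steps (tolerance 0.02) in 63.1% to 66.0% of 2488 to 2705 genes with a single GENCODE release 29 transcript, and 3 reads on 1 kb stood for 0.0898 to 0.138 RPKM, counting error only. The submitters' processing notes list HISAT2, Partek, SAMtools and Trimmomatic and name GRCh38 (hg38). Tool versions, the annotation and strandedness were not stated there.

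Values were used as deposited. A total of 10253 genes, those that reached 1 RPKM in 3 libraries or more, were tested with limma 3.58.1 (R 4.3.3) on log2(RPKM + 1) (line and oxygen level as terms, mean-variance trend, two-sided, Benjamini-Hochberg, threshold 0.05). Folds on this scale understate changes of low genes. The SE is moderated (8.02 prior against 2 residual degrees of freedom) and p-values measure the spread between these libraries, not between cultures of a line. The fit was tested on simulated data. The lines are the labels' own pairing: deviations of the 2 libraries of a line from their oxygen group means correlated at 0.969, 0.936 and 0.941. Isoform shares used an exact sign-flip test over 3 lines. All 10 genes are named whatever their values, and of each further list the 2 largest, the 2 smallest and any called gene. Promoters came from RefSeq. The genes and lists were chosen with earlier results of these data known. Alternatives varied the pseudocount, filter, scaling, trend, block and libraries.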

Additional observations from a re-analysis of the deposited data

Results flagged for a closer look

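PFKL had log2 ratios of (RPKM + 1), hypoxia over normoxia, that came to -0.0089 in SUM1315 but 0.68 in SKBR3 and 0.22 in T47D, so that 1 line lay on the other side of 0 from the other 2. The SUM1315 value is close to 0. The difference between lines was not tested, because each line has 1 library per oxygen level.

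The share of SLC2A3 in the summed RPKM of SLC2A1 and SLC2A3 differed between hypoxia and normoxia by -20.3 points in SUM1315, 2.97 points in SKBR3 and -3.32 points in T47D. In T47D the SLC2A3 values were near the floor of 3 reads. The share of PFKM in the summed phosphofructokinase RPKM differed by 2.76 points in SUM1315, -0.451 points in SKBR3 and -2.44 points in T47D. The directions differ between lines in both shares, and these differences were not tested for the same reason.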

How the results depend on the processing

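The hypoxia log2 fold change of each of the 10 genes kept its direction under all alternatives run, and apart from SLC2A3 the calls were lost in 2 settings only. With no filter on low values and with no replicate block, 0 of the 10 genes were called higher instead of 9 (8 and 4 of them at an unadjusted p under 0.05), and over all genes limma then called 0 higher and 0 lower (1468 and 1247 at an unadjusted p under 0.05 without the filter, 58 and 10 without the block). The lines are the labels' pairing, so the fit without the block leaves the differences between lines in the error. Leaving out 1 line gave 8 to 9. Over all genes, 422 higher and 232 lower became 171 and 72 with a pseudocount of 5 and 179 and 53 without T47D, and the lower count became 126 with a filter on the mean.

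For SUM1315 against SKBR3, the 4 genes called higher became 1 with no filter, 1 after median-of-ratios rescaling and 2 with no oxygen term (2 to 5 with 1 library left out), and the 4 lower became 0 with no oxygen term (3 to 4). Of all genes, 4288 higher of 10253 tested became 6019 of 27552, 3443 of 10253 and 3600 of 10253 in these settings. The 2870 lower became 2397 with no oxygen term. For SUM1315 against T47D, 6 higher became 1 with no filter and 2 with no oxygen term (3 to 6), and 1 lower became 0 with no oxygen term. Of all genes, 4002 higher became 5624 of 27552 with no filter and 3289 with no oxygen term, and 3098 lower became 2618. For SKBR3 against T47D, 5 higher became 2 with no oxygen term (4 to 6), and 1 lower became 2 with a pseudocount of 0.1 (1 to 2). Of all genes, 2731 higher became 1970 with no oxygen term, and 3201 lower became 3215 with a pseudocount of 0.1. Uncalled values that changed sign were PFKM for SUM1315 against T47D (-0.023 after quantile normalization) and, when 1 library was left out, PFKFB4 for SUM1315 against T47D (-0.061 to 0.39), PFKM (-0.36 to 0.033) and SLC2A3 (-0.18 to 1.01) for SUM1315 against SKBR3, and PFKL (-0.20 to 0.37) and PFKP (-0.39 to 0.64) for SKBR3 against T47D. FBP1 under hypoxia had -0.24 to 0.14 with 1 line left out. The cause of these changes was not tested. The HK2, PFKP and PFKL shares and the PFKFB3 to PFKFB4 ratio kept their direction, while with 1 line left out the PFKM share differed by -1.44 to 1.15 points and the SLC2A3 share by -11.8 to -0.175 points. SLC2A3 stood near the floor of 3 reads in T47D, whose libraries were no shallower than those of SUM1315.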
